A study of Homo sapiens with 6 samples.

Results

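The genes described here encode the MCM helicase and the factors that license replication origins, namely MCM2, MCM3, MCM4, MCM5, MCM6, MCM7, MCM10, CDC6, CDT1 and GMNN. They were taken as the genes of the deposited table that carry these symbols, and each of the 10 was found once among 61806 genes. The mRNA was measured by RNA-seq in MDA-MB-231, an established human line of triple-negative breast cancer, in 3 control samples and 3 samples treated with 20 μM Parishin B (PB), a phenolic compound of the orchid Gastrodia elata, with gene expression compared after 24 h. The comparison asks which genes respond to PB, which the study examined as an inhibitor of the pseudokinase TRIB3. No vehicle is named for the control samples of this experiment, and the labels do not say whether samples of a group came from separate cultures, so that p-values measure only the spread between these samples, which may be technical.

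Origins are licensed in G1, when the origin recognition complex and CDC6 receive CDT1 together with the ring formed by MCM2 to MCM7 and close the ring around DNA. In S phase CDC45 and the GINS proteins join the ring to make the active helicase, MCM10 helps to start unwinding, and geminin (GMNN) holds CDT1 so that origins are not licensed again in the same cycle. Many genes of this pathway are transcribed from late G1 on by E2F factors, and high MCM levels are used as a sign of proliferation in tumour tissue.

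All 10 licensing genes were lower in the PB group than in the control group. MCM10 and CDC6 fell the most, to 24.2% and 26.7% of the control FPKM, a count scaled by exon length and library size, and CDT1 fell the least, to 72.4%. The 6 ring subunits lay between, at 32.0% for MCM4 to 51.1% for MCM5, and GMNN was at 41.2%. In edgeR's quasi-likelihood test of the counts, 10 of 10 passed an adjusted p of 0.05 in the lower direction, where 26.2% of the 24200 tested genes did so and 24.2% passed in the higher direction. Of the 10, 9 were also called lower, which required a log2 fold change of -1 or less and held for 6.9% of tested genes, and CDT1 was the exception. For each of the 10 genes the highest PB sample stayed under the lowest control sample, a pattern that 21.6% of tested genes had. The median log2 fold change was -1.42 over the 10 genes and 0.0013 over all tested genes.

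**Figure D1:**
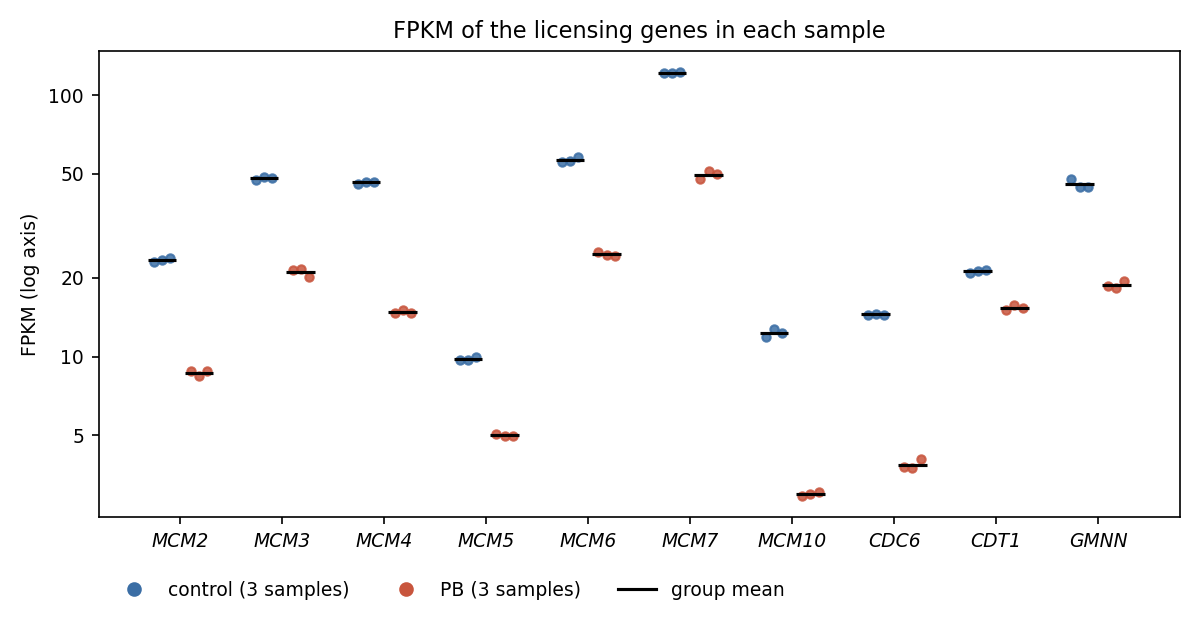
FPKM of each licensing gene in the 3 control samples (blue) and the 3 PB samples (red) on a log axis, with black lines for group means. The blue and red points of a gene do not overlap for any of the 10 genes, and the gap is narrowest for CDT1.

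**Figure D2:**
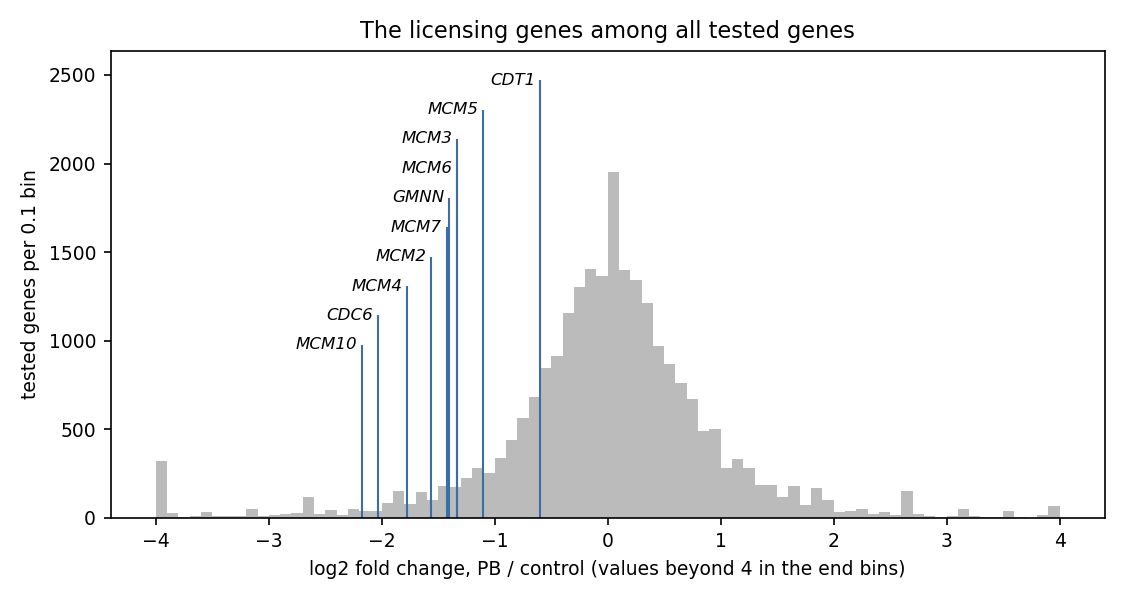
Number of tested genes by fitted log2 fold change, PB over control, in bins of 0.1, with values beyond 4 in either direction gathered in the end bins. Blue lines mark the fold changes of the licensing genes, from -2.18 for MCM10 to -0.60 for CDT1, and their heights only separate the names.

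Total counts per sample lay between 15681655 and 21986948, and the licensing genes together took 1880 to 1910 CPM in control and 739 to 754 in PB. No licensing gene had fewer than 254 counts in a sample, so that none was near the floor of 3 counts, which covers counting error only. The 7 markers of mesenchymal-like MDA-MB-231 cells summed to 991 to 1020 FPKM in control and 946 to 950 in PB, mostly from VIM and AXL. They did not move alike. VIM was at 592 to 615 FPKM in control and 632 to 639 in PB, and ZEB1 at 8.10 to 8.30 and 9.50 to 10.23. The others were lower in PB, with AXL at 252 to 256 and 216 to 222, and CD44 at 50.19 to 53.28 and 40.13 to 40.95. CAV1 was at 69.93 to 71.80 and 33.64 to 35.69, EGFR at 9.87 to 10.23 and 5.93 to 6.22, and FN1 at 7.16 to 7.37 and 2.56 to 3.18. The sum of 10 luminal epithelial markers was 441 to 448 FPKM in control and 162 to 167 in PB, and none of the 10 was at the floor in every sample. Most of that sum came from KRT18, at 281 to 289 FPKM in control and 119 to 123 in PB, and KRT8, at 106 to 108 and 38.1 to 39.7. KRT7 was at 43.5 to 45.0 and 0.35 to 0.49, and CDH1 at 3.72 to 4.32 and 0.00 to 0.02. The list did not move alike, as ERBB2 was higher in PB, at 2.82 to 3.13 and 3.42 to 3.75. EPCAM, KRT19 and GATA3 did not exceed 0.54 FPKM. The defining receptors ESR1 and PGR did not exceed 0.17 FPKM, with ESR1 at 0.06 to 0.08 in control and 0.13 to 0.17 in PB. Fibroblast and immune markers summed to less than 1 FPKM in every sample, with 1 of 6 and 3 of 5 genes at or under the floor in every sample. Genes counted at 30 or more in all control samples but at 3 or fewer in all PB samples numbered 113, and the reverse held for 1 gene. No licensing gene was among the 113, which took 0.178% to 0.181% of control counts. Transcripts of the mitochondrial genome took 4.30% to 4.34% of counts in control and 3.69% to 3.78% in PB. These differences separated the groups in the same way as the licensing genes, and their part in the results was not tested. The labels do not say that both groups were grown from the same stock of cells, and a difference between stocks and an effect of PB cannot be told apart with these samples. In these bulk samples, fewer cells that transcribe a gene and less of its mRNA per cell cannot be told apart.

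The promoters of these genes are shown because these genes moved together and many of them are known E2F targets. RefSeq windows of GRCh38.p14, from 250 bases before to 50 bases after each annotated start, were available for 8 of the 10 genes, MCM4 and MCM5 having no entry in the table used here. They were searched on both strands for the 4 forms of an E2F-type octamer, TTTCCCGC, TTTCGCGC, TTTGCCGC and TTTGGCGC, and overlapping matches on opposite strands were merged into 1 site. A match was found in 7 of 8 genes (87.5%), against 1090 of 27305 genes with a window (3.99%) and 1164 of 35116 windows (3.31%). Matches were not particular to the 10 genes. In the lists described below, 53.6% of S phase genes with a window, 50% of helicase activation genes and 35.3% of E2F and DREAM regulators had one. The shares were 27.3% for origin recognition and MCM cofactors, 23.1% for turnover factors and S phase kinases, and 6.67% for G2/M genes. The whole window was searched, and the stretches that hold the matches, ending at most 15 bases after the start, are given 5′ to 3′ on the strand of the gene, with the matches in capitals.
MCM2, chr3:127598398-127598425, plus strand: gtcacgtgaaccactTTTCGCGCGAAAc
MCM6, chr2:135876512-135876610, minus strand: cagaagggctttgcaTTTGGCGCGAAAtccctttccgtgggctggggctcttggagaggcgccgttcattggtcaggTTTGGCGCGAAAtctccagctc
MCM3, chr6:52284729-52284931, minus strand: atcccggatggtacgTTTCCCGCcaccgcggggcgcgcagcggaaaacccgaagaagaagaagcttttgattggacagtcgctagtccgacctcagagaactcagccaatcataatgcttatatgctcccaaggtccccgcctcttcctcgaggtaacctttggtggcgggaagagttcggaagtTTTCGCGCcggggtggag
MCM7, chr7:100101389-100101599, minus strand: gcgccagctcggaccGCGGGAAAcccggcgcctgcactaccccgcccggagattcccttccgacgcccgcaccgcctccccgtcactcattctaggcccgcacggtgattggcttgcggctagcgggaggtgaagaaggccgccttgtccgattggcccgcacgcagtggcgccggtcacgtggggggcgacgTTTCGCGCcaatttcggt
CDC6, chr17:40287871-40287893, plus strand: ctgtggccattcggaTTTGGCGC
CDT1, chr16:88803739-88803771, plus strand: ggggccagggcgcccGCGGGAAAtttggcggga
GMNN, chr6:24775318-24775350, plus strand: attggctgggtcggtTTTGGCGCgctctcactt

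Positions are those of the first base of a match, counted from the start base as 0, with negative values upstream. MCM2 and MCM6 carried the octamer on both strands in overlapping pairs, which begin at 2 and 6 in MCM2 and at -152, -148, -90 and -86 in MCM6. MCM3 and MCM7 each had a distant match, at -174 and -187, and a near one, at -4 and -9. CDT1 and GMNN had a single match, at -35 and -80, and that of CDC6 began at 7. Of the 2 annotated starts of GMNN only the second had a match, and of the 3 of MCM7 only the first. MCM10, whose fall was the largest of the 10, had no match in its window, which says only that these letters were not found there. Tested genes outside the 10 were compared where a promoter window was available, which left out many of them. The median log2 fold change was -0.11 for the 791 genes with a match and -0.023 for the 11748 without, and 11.3% and 7.90% of them were called lower. A match is a description of the sequence and was not tied to binding of a factor in these data.

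CDC6 and CDT1 are the loaders, and their changes were far apart. CDC6, an ATPase that works with the origin recognition complex and lies at chr17:40287879-40304657, was at 14.45, 14.61 and 14.46 FPKM in control replicates 1, 2 and 3 and at 3.78, 3.76 and 4.06 in PB replicates 1, 2 and 3. The PB values were close to each other and far below the lowest control value. Its log2 fold change was -2.03 (SE 0.052, edgeR adjusted p = 1.00e-43), or 4.10-fold lower. CDT1, which brings the ring to the origin and lies at chr16:88803789-88809258, was at 20.88, 21.30 and 21.39 FPKM in control and 15.05, 15.69 and 15.30 in PB. Both groups were tight and did not overlap, but the gap was small beside that of CDC6. Its log2 fold change was -0.60 (SE 0.047, edgeR adjusted p = 3.73e-18), or 1.52-fold lower, so that CDT1 passed the test but not the line of -1.

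GMNN, the gene of the CDT1 inhibitor geminin at chr6:24774931-24786099, was at 47.61, 44.54 and 44.62 FPKM in control and 18.56, 18.29 and 19.50 in PB. The first control sample was the highest, and all PB samples were well below the lowest control sample. The log2 fold change of GMNN was -1.41 (SE 0.042, edgeR adjusted p = 5.44e-40). Because CDT1 fell less than GMNN, the ratio of CDT1 to GMNN FPKM was higher in PB, at 0.811, 0.858 and 0.785, than in control, at 0.439, 0.478 and 0.479. The mean ratio was 0.465 ± 0.023 (SD, n = 3) in control and 0.818 ± 0.037 (SD, n = 3) in PB, a difference of 0.81 on the log2 scale without overlap between groups (p = 0.1 in an exact permutation test, two-sided, where 3 against 3 samples allow no smaller value). These are mRNA levels, and both proteins are also controlled by degradation during the cycle. The exonic lengths that scale the FPKM differ from the longest coding transcript in GENCODE 29, at 2476 against 1262 bases for GMNN and 2760 against 3240 for CDT1, which shifts the ratio in both groups alike and leaves the difference at 0.81.

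The 6 subunits of the ring fell together, with a median log2 fold change of -1.38. Their summed FPKM was 302.6, 305.7 and 309.2 in control and 122.9, 125.7 and 122.7 in PB. The PB sum was thus 40.5% of the control sum, with means of 305.9 ± 3.28 and 123.8 ± 1.69 (SD, n = 3 each) and no overlap between groups.

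MCM4, the subunit with the largest fall, lies at chr8:47960185-47978160 and was at 45.67, 46.71 and 46.60 FPKM in control and 14.75, 15.07 and 14.64 in PB. Its log2 fold change was -1.78 (SE 0.026, edgeR adjusted p = 1.15e-57), the smallest p of the 10 genes, behind which stood 7340 to 10095 counts in control and 2308 to 2734 in PB. MCM2, a target of the CDC7 kinase at chr3:127598410-127622436, was at 23.05, 23.49 and 23.81 FPKM in control and 8.85, 8.44 and 8.79 in PB. All PB values of MCM2 lay close together, far below the control values. The log2 fold change of MCM2 was -1.56 (SE 0.042, edgeR adjusted p = 7.51e-43).

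MCM7, which sits next to MCM4 in the ring and whose gene lies at chr7:100092728-100101940, had the highest level of the 10 genes in every sample. It was at 121.01, 121.10 and 122.54 FPKM in control and 47.69, 51.27 and 49.79 in PB, a log2 fold change of -1.43 (SE 0.025, edgeR adjusted p = 4.23e-53). MCM6, at chr2:135839626-135876443, was at 55.68, 56.05 and 58.04 FPKM in control and 25.17, 24.43 and 24.34 in PB. MCM3, at chr6:52264014-52284881, was at 47.51, 48.70 and 48.19 FPKM in control and 21.35, 21.54 and 20.20 in PB. MCM6 and MCM3 fell by nearly the same factor, with log2 fold changes of -1.33 for both (SE 0.031 and 0.034, edgeR adjusted p = 2.37e-46 and 6.50e-44), and neither gene's groups overlapped.

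MCM5, the partner of MCM2 at the gate through which DNA enters the ring, lies at chr22:35400134-35425431 and had the lowest control FPKM of the 10 genes with the deposited exonic length of 7268 bases, though not with its coding transcript of 3534. It was at 9.72, 9.68 and 10.01 FPKM in control and 5.08, 4.98 and 4.96 in PB. The log2 fold change of -1.10 (SE 0.047, edgeR adjusted p = 1.43e-31) was the smallest of the ring subunits and stood close to the line of -1. It was -0.85 with limma on log2(FPKM + 1), so that MCM5 passed the test there but was not called lower, as was also the case with library size alone.

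MCM10, the activation factor at chr10:13161558-13211110, was at 11.87, 12.81 and 12.27 FPKM in control and 2.93, 2.99 and 3.04 in PB. The PB samples lay close together and no control sample came near them. With a log2 fold change of -2.18 (SE 0.057, edgeR adjusted p = 3.08e-43), or 4.52-fold lower, it had the largest fall of the 10 genes, behind which stood 1057 to 1472 counts in control and 254 to 314 in PB. The coefficient of variation of the 10 genes was 0.618% to 3.84% between control samples and 1.28% to 4.34% between PB samples, so that each fall was many times the spread between replicates.

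The order of the falls was compared between neighbours by the log2 ratio of their counts in each sample, over 9 pairs. That order was itself set by the fold changes of these same samples. The direction of a step was thus given beforehand, and the p-values below are descriptions. For 6 pairs the groups did not overlap, each with an exact permutation p of 0.1 (0.15 after Benjamini-Hochberg adjustment over the 9), which is the smallest that 3 against 3 samples allow. The widest step was between MCM5 and CDT1, where PB minus control was -0.50, followed by CDC6 and MCM4 at -0.26, MCM3 and MCM5 at -0.23, and MCM4 and MCM2 at -0.21. The steps from MCM10 to CDC6 and from MCM2 to MCM7 were both -0.14. From MCM7 through GMNN and MCM6 to MCM3 the groups overlapped at each step, with differences of -0.015, -0.080 and -0.0039 and exact p-values of 1, 0.3 and 1. Over all 45 pairs of the 10 genes (added after seeing the data) the groups overlapped in 4, which were these 3 and GMNN with MCM3. How often pairs of other genes separate the groups was not examined, so that these counts are not shown to be particular to the 10 genes. MCM7 with MCM6 and MCM7 with MCM3 did not overlap, with differences of -0.095 and -0.099 (exact permutation p = 0.1 each, 0.11 after adjustment over the 45 pairs).

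**Figure D3:**
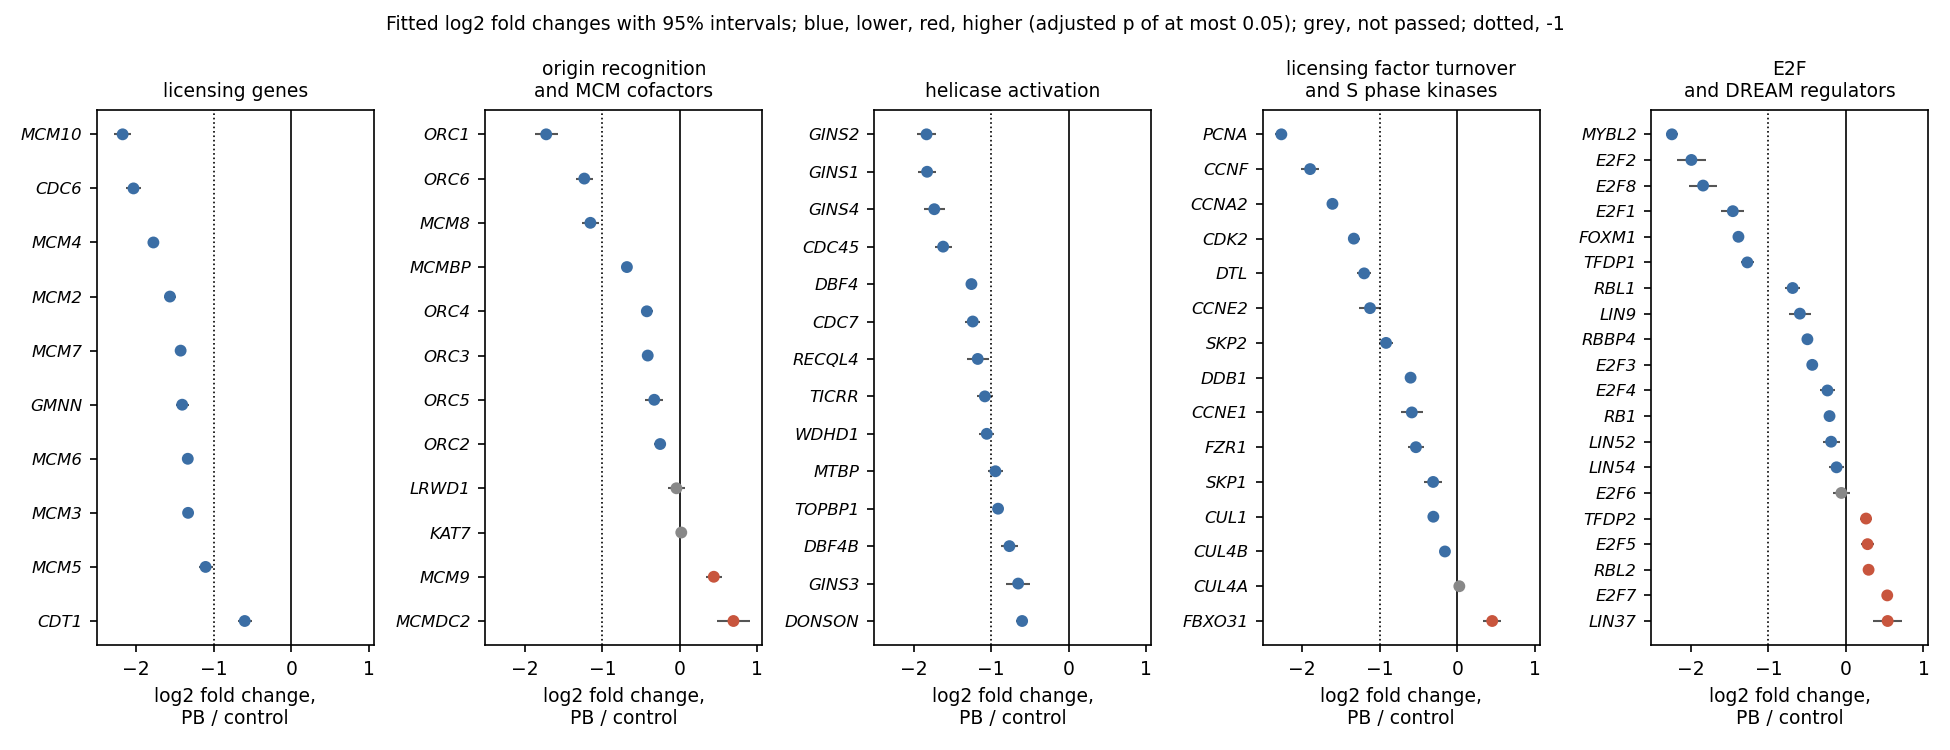
Fitted log2 fold changes, PB over control, of the licensing genes and of 4 lists of genes that work with them, with 95% intervals as bars. Blue points passed an adjusted p of 0.05 in the lower direction, red points in the higher direction and grey points did not pass, and the dotted line marks -1. The 10 licensing genes and the 14 helicase activation genes are all blue, while the other lists hold red and grey points.

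Per length, the order of levels in control was MCM7, MCM6, MCM3, MCM4, GMNN, MCM2, CDT1, CDC6, MCM10 and MCM5, and the FPKM range of GMNN overlapped those of MCM4 and MCM3. In PB it was MCM7, MCM6, MCM3, GMNN, CDT1, MCM4, MCM2, MCM5, CDC6 and MCM10, and CDT1 and MCM4 overlapped. The 3 genes with the highest levels were thus the same in both groups, while CDT1 was at rank 7 in control and 5 in PB, and MCM5 at rank 10 and 8. The ranks depend on the length assumed. Scaled by the longest coding transcript of GENCODE 29 (added after seeing the data), MCM7 was still first, MCM4 was at rank 2 in control and 3 in PB, and the last in both groups was MCM10, with MCM5 at rank 7 in control and 8 in PB.

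The make-up of the ring mRNA differed without overlap between groups for 5 of the 6 subunits, most in percentage points for MCM4. How often shares within other sets of genes separate the groups was not examined, so that this count is not shown to be particular to the ring. MCM4 supplied 15.1%, 15.3% and 15.1% of the summed FPKM of MCM2 to MCM7 in control and 12.0%, 12.0% and 11.9% in PB, a difference of -3.17 percentage points. The share of MCM2 was 7.67% in control and 7.03% in PB, also lower, whereas those of MCM6 (18.5% and 19.9%), MCM3 (15.7% and 17.0%) and MCM5 (3.21% and 4.05%) were higher in PB. For these 5 subunits the groups did not overlap (exact permutation p = 0.1 each, 0.12 after adjustment over 6 subunits), whereas the share of MCM7, at 39.7% and 40.1%, overlapped (exact p = 0.8). The highest subunit was 12.2 to 12.5 times the lowest in control and 9.39 to 10.3 times in PB, on the FPKM scale. The level of a share depends on the length assumed, since the deposited exonic length of MCM4 is 9852 bases against 4183 for its longest coding transcript. Scaled by coding transcripts, MCM4 had 24.2% of the ring in control and 19.6% in PB.

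**Figure D4:**
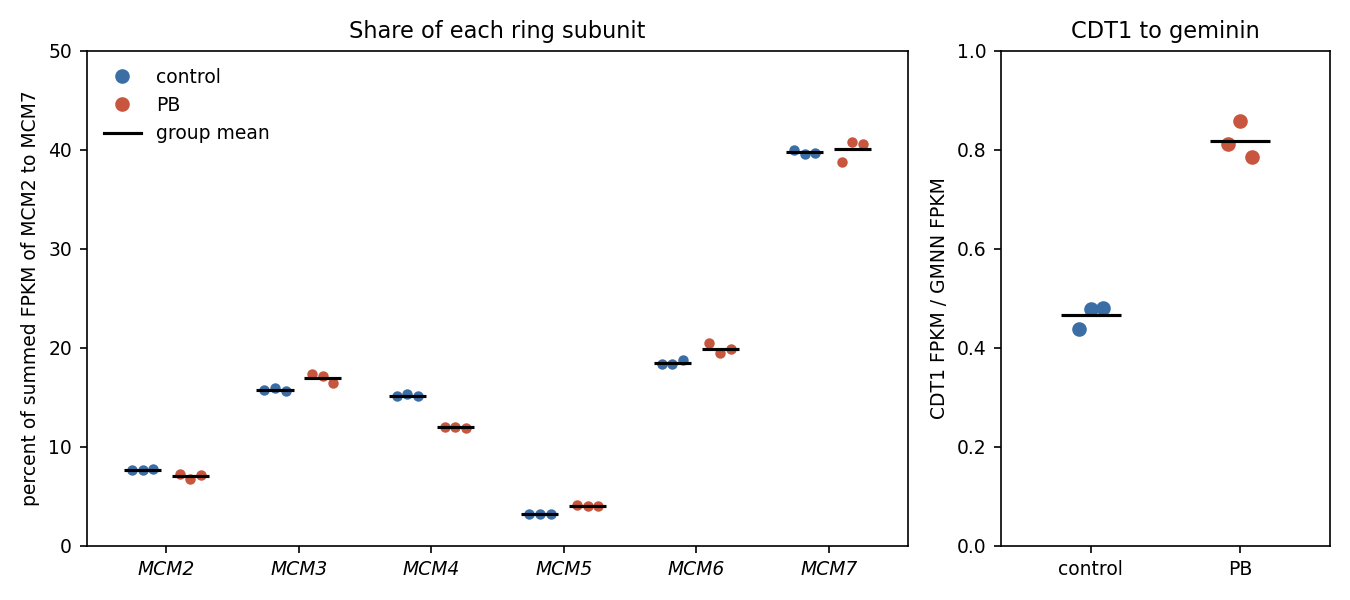
Left, percent of the summed FPKM of MCM2 to MCM7 taken by each subunit in each sample; right, FPKM of CDT1 divided by FPKM of GMNN in each sample; control in blue, PB in red, group means as black lines. MCM4 is at a mean of 15.1% in control and 12.0% in PB, MCM7 overlaps between groups, and the 3 PB ratios of CDT1 to GMNN, 0.785 to 0.858, lie above the 3 control ratios, 0.439 to 0.479.

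The counts of overlapping and neighbouring genes were examined for each gene, since the strandedness of the counting is not given in the sources used here. Such counts cannot show to which gene a single read belongs. AP4M1, which overlaps the start of MCM7 on the opposite strand, was at 4.22 ± 0.293 FPKM in control and 4.61 ± 0.081 in PB (SD, n = 3), with a log2 fold change of -0.0053 (edgeR adjusted p = 0.970). The microRNA gene MIR25, within the span of MCM7, had 10 to 15 counts in control and 5 to 7 in PB (log2 fold change -1.22, edgeR adjusted p = 0.0182), and its reads cannot be told apart from those of the MCM7 transcript. MIR93 and MIR106B, also within MCM7, had 0 to 4 counts per sample. A gene without a symbol, ENSG00000285600, overlaps MCM2 and had 3 to 10 counts. PRKDC, the catalytic subunit of DNA-dependent protein kinase, begins 7 bases from MCM4 on the opposite strand and fell less than MCM4, by 0.69 on the log2 scale, with means of 66.6 ± 1.77 and 45.2 ± 1.04 FPKM (SD, n = 3; edgeR adjusted p = 1.66e-41).

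The nearest expressed genes on each side of the licensing genes, 20 in all, moved in both directions. Of these, 7 passed in the lower and 8 in the higher direction, 5 did not pass, and 1 was called lower, C6orf141, which lies 2702107 bases from MCM3 (-3.49). Among all tested genes 26.2% passed in the lower and 24.2% in the higher direction, and 6.9% were called lower, so that these counts single out nothing about the neighbours. The genes closest to a licensing gene had changes that were smaller than its own or opposite. TPRA1, 143 bases from MCM2, rose by 0.42 on the log2 scale, COPS6, 541 bases from MCM7, fell by 0.45, and APRT, 81 bases from CDT1, was at -0.021 and did not pass. HMOX1, the haem oxygenase gene 5920 bases from MCM5, rose by 1.00, with means of 5.41 ± 0.628 FPKM in control and 12.0 ± 0.740 in PB (SD, n = 3; edgeR adjusted p = 3.06e-18).

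The 12 origin recognition genes and MCM cofactors were less uniform than the licensing genes. Of these 12, 8 passed in the lower and 2 in the higher direction, 3 were called lower, and the median log2 fold change was -0.37. ORC1, the subunit whose level changes through the cycle, was at 10.25, 10.85 and 10.07 FPKM in control and 3.15, 3.29 and 3.80 in PB, a log2 fold change of -1.73 (SE 0.076, edgeR adjusted p = 1.42e-30). ORC6 fell by 1.23 on the log2 scale and MCM8, an MCM relative that acts in homologous recombination, by 1.15. The remaining subunits of the complex, ORC2 to ORC5, passed with log2 fold changes between -0.43 and -0.25. MCM9, the partner of MCM8, and MCMDC2, known from meiosis, rose by 0.44 and 0.69. The ring-binding protein gene MCMBP fell by 0.68, and LRWD1 (-0.045) and the histone acetyltransferase gene KAT7 (0.018) did not pass.

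The genes that turn the loaded ring into a helicase fell without exception. All 14 passed in the lower direction, 9 were called lower, and the median log2 fold change was -1.13. GINS2 was at 14.45, 14.74 and 14.58 FPKM in control and 4.46, 4.64 and 4.39 in PB, and its log2 fold change of -1.83 (SE 0.063, edgeR adjusted p = 1.42e-36) was shared by GINS1 at -1.83, with GINS4 at -1.73. These are subunits of the same complex, and the fourth, GINS3, fell by 0.65 only. CDC45, the other subunit of the active helicase, fell by 1.62, and the kinase subunit genes CDC7 and DBF4 by 1.24 and 1.25. The smallest change of the list was that of DONSON, a GINS-binding factor, at -0.60.

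Among 15 genes of licensing factor turnover and S phase kinases, 13 passed in the lower and 1 in the higher direction, 6 were called lower, and the median was -0.60. PCNA, the sliding clamp on which CDT1 is marked for degradation, was at 113.33, 117.25 and 115.47 FPKM in control and 26.79, 25.45 and 26.40 in PB, a log2 fold change of -2.27 (SE 0.040, edgeR adjusted p = 2.06e-53). DTL, the substrate receptor of the ligase that degrades CDT1 on PCNA, fell by 1.20, while the ligase's scaffold genes CUL4A (0.027, not passed) and CUL4B (-0.16) and its adaptor DDB1 (-0.60) were nearer to 0. CCNF, a ubiquitin ligase receptor that acts on CDC6, fell by 1.90, and SKP2, another ligase receptor for CDT1, by 0.92. CCNA2 and CDK2, which make an S phase kinase, fell by 1.61 and 1.33. FBXO31, a further ligase receptor, was the only gene of the list to pass in the higher direction, with a log2 fold change of 0.45.

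The E2F and DREAM regulators, which control when licensing genes are transcribed, were split. Of 20 genes 14 passed in the lower and 5 in the higher direction, 6 were called lower, and the median was -0.34. MYBL2 was at 65.80, 63.82 and 65.24 FPKM in control and 14.69, 14.84 and 15.44 in PB, a log2 fold change of -2.25 (SE 0.038, edgeR adjusted p = 5.86e-54). Among the E2F genes, E2F2 (-1.99), E2F8 (-1.84) and E2F1 (-1.46) were called lower, with FOXM1 (-1.39) and the E2F partner TFDP1 (-1.27) beside them. Genes that passed in the higher direction were LIN37 (0.54), a DREAM subunit, E2F7 (0.53), a repressor E2F, RBL2 (0.29), the p130 pocket protein, E2F5 (0.28) and TFDP2 (0.26). Genes of the same kinds also fell. E2F8, a repressor like E2F7, is among those called lower, and the pocket protein gene RBL1 (-0.69) passed in the lower direction. So did the DREAM genes LIN9 (-0.59) and RBBP4 (-0.50). E2F7 was at 16.99, 17.98 and 16.92 FPKM in control and 28.07, 27.29 and 26.92 in PB, without overlap. The smallest falls of the list to pass included that of LIN54 (-0.12), whose FPKM means of 7.07 and 7.10 did not differ in that direction before TMM scaling.

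Over the 4 lists, 49 of 61 genes passed in the lower and 8 in the higher direction, 24 were called lower and 0 higher, with a median of -0.65. For comparison, 37 of 37 genes of an S phase list passed in the lower direction with 27 called and a median of -1.28, 6 of them (CCNE2, CDC45, DTL, E2F8, GINS2 and PCNA) being in the 4 lists too, and 53 of 54 G2/M genes passed with 46 called and a median of -1.55. The median of -1.42 over the licensing genes lay between those of the S phase and G2/M lists, and these medians are descriptions without a test.

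The genes outside all lists whose profile was nearest to the mean of MCM2 to MCM7 were sought among the 4321 genes averaging 10 FPKM or more, by the root mean square distance of centred log2 CPM over the 6 samples. Among the nearest were FDPS (distance 0.023), which makes farnesyl diphosphate, DNMT1 (0.023), the maintenance DNA methyltransferase, RFC3 (0.032), a subunit of the loader of PCNA, and RANBP1 (0.034), a regulator of Ran. Their log2 fold changes were -1.41, -1.39, -1.48 and -1.38, in that order. MCM7 itself was at a distance of 0.032 and MCM5 and MCM4 at 0.16 and 0.18, and with 6 samples in 2 groups this measure mainly reads the size of the difference between groups.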

How the data were processed

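RNA-seq of 3 control and 3 PB samples of MDA-MB-231 was analysed, grouped by the sample labels, and each column was matched to its sample by name. The dose and time come from the study's text. The authors deposited raw counts per gene and FPKM values. Per the submitters' processing notes, HTSeq 0.6.1, Cufflinks 2.2.1 and DESeq2 were used with hg38; the aligner, annotation release and strandedness are not given in the sources used here. Each deposited FPKM value equalled the count scaled by the deposited exonic length and the total count, within rounding. The 24200 genes averaging 0.1 FPKM or more were tested with edgeR 4.0.16 in R 4.3.3 (TMM, quasi-likelihood) and Benjamini-Hochberg adjustment over all of them. The procedure had first been run on simulated data in which far fewer genes changed, so that its behaviour with as many changes as here was not checked. Fold changes are on the TMM scale, whereas FPKM values are not TMM-scaled. Exact permutation tests over samples were two-sided. Coordinates are those of the deposited table (hg38).

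The members and gene lists were chosen with earlier results of these data known. The rule for other named genes took, in each list, the 3 lowest and the highest changes that passed, up to 3 that passed against the majority, genes overlapping or next to a member (1 FPKM or more on average), and the 5 nearest profiles, of which 1 is not reported here. Others, such as ORC2 to ORC5, GINS3, CDC45, DTL, CUL4A, CDK2, E2F1, FOXM1, RBL1, LIN9, RBBP4 and LIN54, were chosen after their values were seen. Alternatives used DESeq2 1.42.0 and limma 3.58.1 among others.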

Additional observations from a re-analysis of the deposited data

How the results depend on the processing

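The model was refitted in 15 ways, and the 10 licensing genes kept their direction and passed in each, 150 of 150 values; the largest adjusted p among these was 1.61e-05, for CDT1 with limma on log2(FPKM + 0.1). The number called lower was 9 without an expression filter, on genes averaging 1 FPKM or more, with DESeq2, with a robust prior, with the older quasi-likelihood fit and without any 1 sample (9 to 9). It was 8 with limma on log2(FPKM + 0.1) or log2(FPKM + 1) and with library size alone, where MCM5 was no longer past -1, 10 without a fold line, and 2 with a log2 line of 2. The partner genes called lower numbered 24, against 49 without a fold line, 2 with a line of 2, and 24 to 24 without any 1 sample. They numbered 20 and 17 with limma on log2(FPKM + 0.1) and log2(FPKM + 1), and 21 with library size alone. The origin recognition genes and MCM cofactors among them went from 3 to 1 with limma on log2(FPKM + 1). The difference in the MCM4 share, -3.17 points, was -5.30 on raw counts and -4.66 with coding transcript lengths (the latter added after seeing the data), and -3.21 to -3.11 without any 1 sample, while the CDT1 to GMNN difference of 0.81 was 0.77 to 0.84.

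Same-numbered samples showed no shared deviation from their group means, with correlations of -0.017, 0.019 and -0.0020. This cannot show whether they were prepared as pairs, which the labels do not say. With the replicate number as a block, 9 licensing genes and 24 partner genes were called lower and, over all genes, 1600 lower and 1252 higher. Over all genes 1671 were called lower and 1347 higher, against 1375 and 1859 with library size alone, which moved the median of all genes to 0.13, 1197 and 1384 with limma on log2(FPKM + 0.1), 774 and 616 among genes averaging 1 FPKM or more, and 496 and 329 with limma on log2(FPKM + 1). The groups hold 3 samples each, so that single values cannot reach an exact p under 0.1.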
